A study of Mus musculus with 3 samples.

Results

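The genes of glucose uptake, glycolysis and the pentose phosphate pathway were described in 3 messenger RNA libraries of mouse tumour cells. The list holds 48 genes, chosen by symbol, out of 34591 rows in the deposited count table. A row carried the gene's own symbol for 47 of them, and Tigar was found through a RefSeq synonym under the older name 9630033F20Rik. The pyruvate kinase gene stands in the table as Pkm2, and its row does not separate the M1 and M2 splice forms.

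All 3 libraries belong to 1 group, genotype WISP2 OE, in 4T1 cells, an established murine breast cancer line grown in RPMI with fetal calf serum. WISP2 (CCN5) is secreted and belongs to the CCN proteins of the extracellular matrix. The protocol in the labels describes lentiviral transduction and puromycin selection for Wisp1 constructs, and it names neither the WISP2 construct, nor its promoter, nor whether the cells are a clone or a pool. Control cells with an empty vector, named in the study's design, were not analysed here. The values therefore describe levels, the share of each isoform and the spread between libraries, and carry no effect of WISP2. No source says that the libraries came from separate cultures, so the p-values measure the spread between these samples, which may be technical.

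Glycolysis splits glucose into pyruvate in the cytosol, and lactate dehydrogenase then turns pyruvate into lactate with the return of NAD. The pentose phosphate pathway branches off at glucose 6-phosphate and yields NADPH and ribose. Most steps can be run by several isoforms that differ in tissue and in control, and many of these genes are targets of the hypoxia-inducible factor, of MYC and of the glucose-sensing factor MondoA. Tumour cells are known for a high rate of lactate formation also where oxygen is present.

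The libraries, named C1, C2 and C3 after column suffixes that carry no order, held 17630755, 67028365 and 47577315 counts. A single count was thus worth 0.0567, 0.0149 and 0.0210 counts per 1000000 (CPM), and 3 counts, the limit that a count of 0 allows, came to 0.170, 0.0448 and 0.0631 CPM. These limits and all single-library intervals cover counting error only. Wisp2, the gene over-expressed, had 428.6, 384.0 and 454.0 CPM, and there was no control level to set it against. All 7 epithelial markers searched were at 1 CPM or more in every library, led by Krt8, Krt18 and Krt7. In bulk RNA, fewer cells of a type and less RNA per cell cannot be told apart. Defining markers of striated muscle, hepatocytes, adipocytes and endothelium were near 0, with summed levels of at most 0.358 CPM for each list in any library. Among fibroblast markers only Pdgfra was at 1 CPM or more in every library, and the 10 leukocyte markers had a summed level of 20.2, 9.83 and 10.3 CPM in C1, C2 and C3. Of those leukocyte markers, Cd68 and Lyz2 reached 1 CPM in every library, Ptprc stood at 0.273 CPM or less and Cd3e had no count.

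Near-identical copies limit what can be said of 4 glycolytic genes, and they come before the levels for that reason. The search took annotated transcripts with at least 90% identity over at least 50% of a gene's coding sequence. Rows of such copies held 83.2%, 82.8% and 83.1% of the counts of Gapdh and its copies in C1, C2 and C3, spread over 61 rows. For Eno1 the share was 71.1%, 70.7% and 71.5%, all in Gm5506 and the processed pseudogene Gm13699. For Pgk1 it was 69.8%, 70.0% and 71.0%, in the processed pseudogenes Pgk1-rs7 and Gm5537. For Pgam1 it was 20.3%, 20.1% and 21.4%, nearly all in Pgam1-ps2. In every other gene with a counted copy the share was at most 0.813%. The 61 Gapdh rows include that of another named gene, Peli2, taken in through an annotated transcript that matched. It had 25, 134 and 66 counts, which need not come from Gapdh or a copy. The coding sequences of Eno1 on chromosome 4 and of Gm13699 on chromosome 2 differed at 5 of 1302 bases, and the aligned 1250 bases of Pgk1 on chromosome X and Pgk1-rs7 on chromosome 12 did not differ at any base.

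To show how alike such rows are, coding bases 697 to 816 of Eno1 (GENCODE M21, build GRCm38) stand here over the same stretch of Gm13699, 5′ to 3′, with the 2 differing bases in capitals.
Eno1: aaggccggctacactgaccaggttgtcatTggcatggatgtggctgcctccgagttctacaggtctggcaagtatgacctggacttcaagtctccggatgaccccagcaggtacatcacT
Gm13699: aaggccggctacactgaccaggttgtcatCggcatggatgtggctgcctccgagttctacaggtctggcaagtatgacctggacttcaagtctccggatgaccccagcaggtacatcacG

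How reads that match several genes were counted is not given in the sources used here, so the gene and its copies cannot be told apart. With the copies added, Gapdh reached 3253 ± 218 CPM (SD, n = 3), 5.87-fold its own row. Eno1 with its copies reached 3333 ± 121 CPM, 3.46-fold its own row. Pgk1 with its copies came to 1716 ± 55.2 CPM, 3.38-fold its own row. Pgam1 with its copies came to 1052 ± 33.1 CPM, 1.26-fold its own row. Values given below for these 4 genes are those of the gene's own row unless the copies are named.

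**Figure D1:**
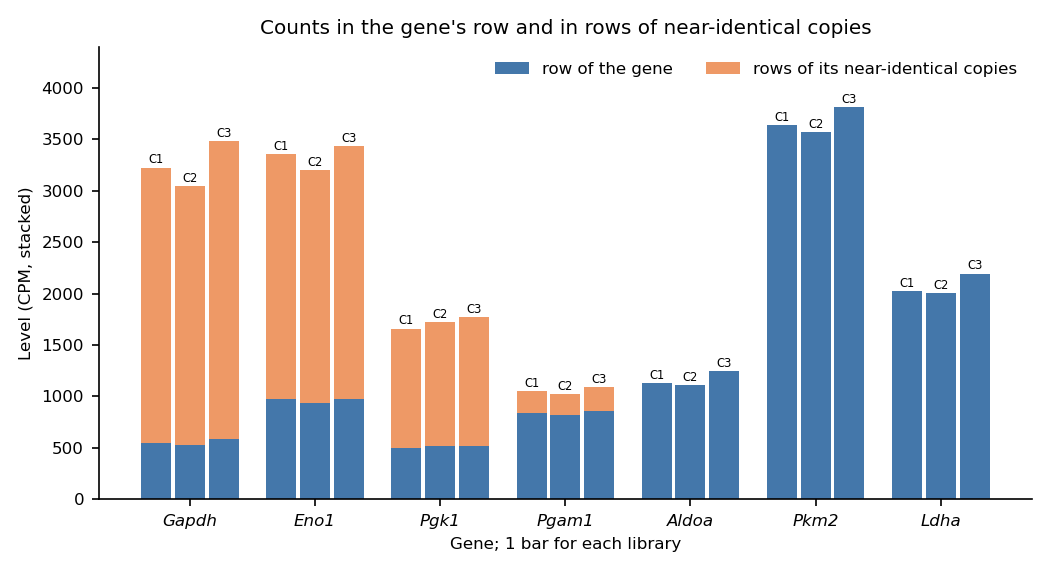
CPM in each of the 3 libraries (1 bar each) for 7 glycolytic genes, with the gene's own row in blue and the rows of its near-identical copies stacked in orange. Copies hold most of the counts for Gapdh, Eno1 and Pgk1, part of them for Pgam1 and almost none for Aldoa, Pkm2 and Ldha.

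The pathway was abundant. Of the 48 genes, 39 had 1 CPM or more in every library (81.2%), against 33.8% of all rows of the table. An average of 100 CPM or more was reached by 18 (37.5%), against 7.13% of all rows. Of all 34591 rows, 15794 had no count in any library, which lowers both shares of all rows. Pkm2, Ldha and Aldoa exceeded 1000 CPM on average. The 48 genes took 1.41% ± 0.05 of all counts (SD, n = 3), or 2.06% ± 0.08 with the near-identical copies, and the 5 highest of them held 61.7% of the list's counts. Levels of different genes are compared below per length, as TPM: counts per base of GENCODE M21 exons, scaled to the same sum in each library. The exons of a gene were merged over all annotated transcripts, so retained introns lengthen some genes, and ratios per coding length are given where they differ by more than 1.5 times.

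The 9 other genes were low or without counts. Pgam2, Pklr, Mlxipl and Fbp1 had 0 counts in all 3 libraries. Slc2a3, Slc2a4, Hk3, Slc16a3 and Pdk4 had between 3 and 20 counts summed over the libraries. Several are isoforms best known from muscle (Pgam2, Slc2a4), liver and red cells (Pklr), neurons (Slc2a3) or leukocytes (Hk3), together with Mlxipl, the glucose-sensing factor of liver, Fbp1, a gluconeogenic enzyme, and Pdk4, a starvation-induced kinase. Slc16a3 is different in kind, being best known as the lactate exporter of glycolytic cells.

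**Figure D2:**
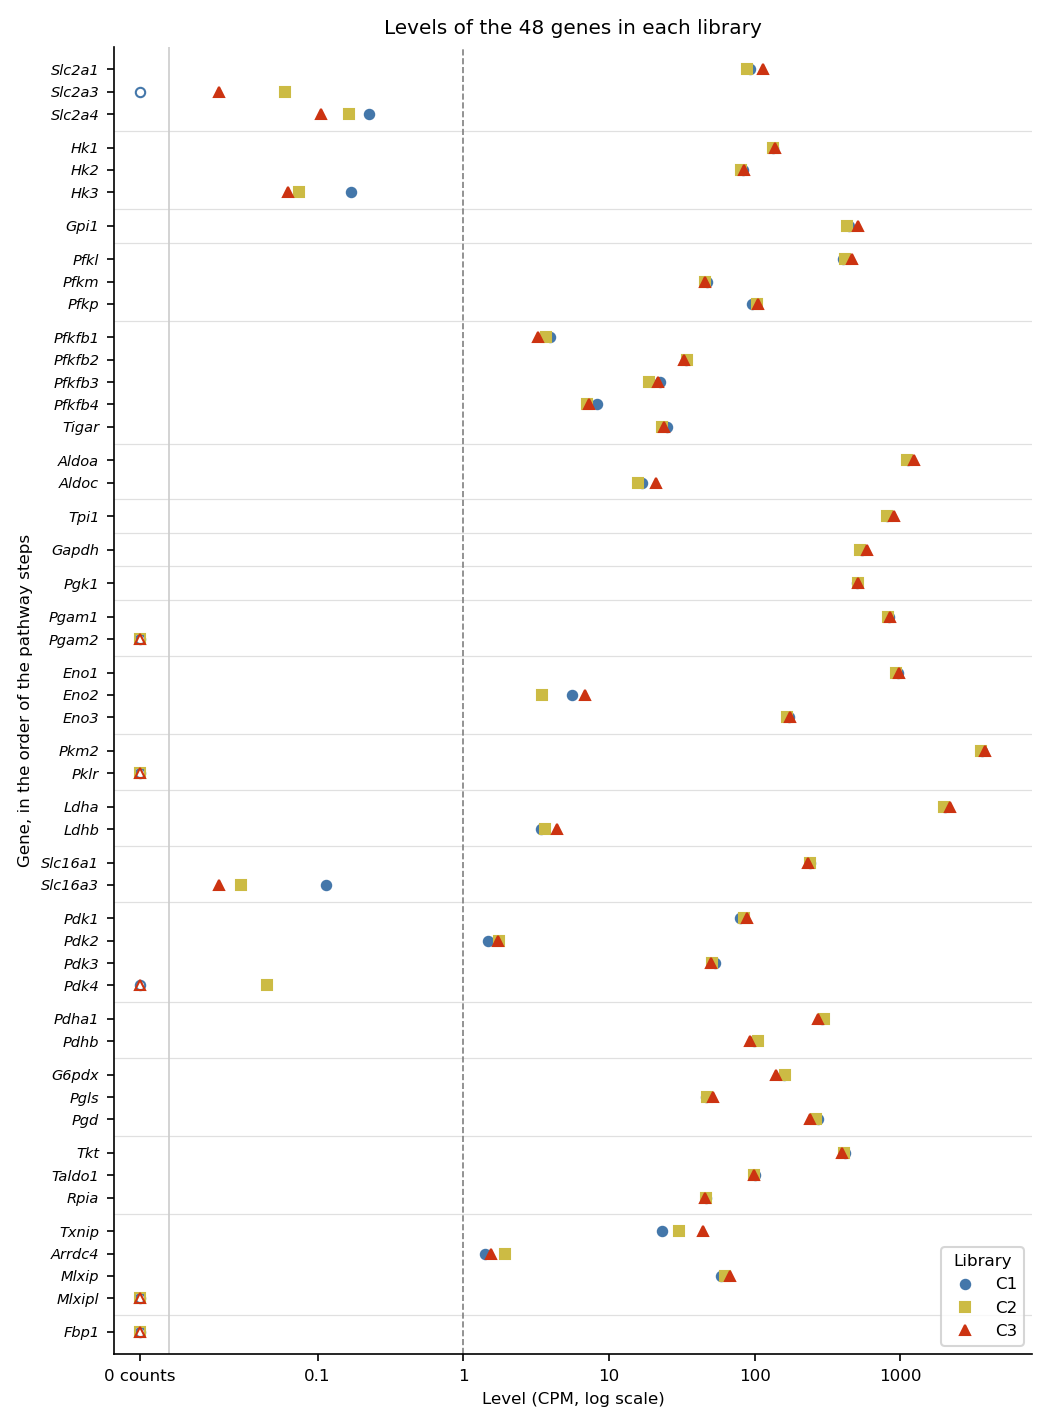
CPM of the 48 genes on a log axis, in the order of the pathway, with a symbol for each of the 3 libraries, open symbols at the left for 0 counts and a dashed line at 1 CPM. Most steps have 1 or 2 genes near or above 100 CPM, and the 3 symbols of a gene lie close together at high levels.

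Glucose enters cells through facilitative transporters. Slc2a1 (GLUT1), the transporter of most dividing cells, had 92.9, 88.2 and 114.5 CPM in C1, C2 and C3. Slc2a4 (GLUT4), the insulin-responsive transporter of muscle and fat, had 4, 11 and 5 counts, and Slc2a3 (GLUT3), the neuronal one, had 0, 4 and 1. Slc2a1 made up 99.8% of the length-corrected level of the 3 transporters in the mean of the libraries. Per length it stood 566-fold over Slc2a4, with a log2 ratio of 9.14 ± 0.73 (SD, n = 3). Against Slc2a3 the summed counts were 13000 to 5, a ratio of 2600 with a 95% counting interval of 1114 to 8009.

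Hexokinases trap glucose as glucose 6-phosphate, and 2 of the 3 were well detected. Hk1, the form of most tissues, had 134.2, 134.4 and 137.2 CPM, with a coefficient of variation (CV) of 1.23%. Hk2, the form of muscle and many tumours, had 83.0, 81.0 and 85.0 CPM. Per length the levels were 46.8 ± 0.5 TPM for Hk1 and 41.1 ± 0.9 TPM for Hk2 (SD, n = 3), and the 3 values of each did not overlap. Hk1 was thus 1.14-fold over Hk2 (log2 ratio 0.19 ± 0.02, SD, n = 3), and per coding length 1.58-fold, while per longest transcript the log2 ratio was 1.07. Hk3 had 3, 5 and 3 counts. Hk3 was highest in C1 in CPM, with overlapping counting intervals, as was the summed level of the leukocyte markers, and their part in Hk3 was not tested.

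Gpi1, phosphoglucose isomerase, had 441.6, 431.8 and 507.8 CPM, with C3 above the others. Phosphofructokinase-1, the committing step, was led by Pfkl, the liver form, with 404.4, 417.5 and 467.5 CPM. Pfkp, the platelet form, had 96.2, 103.4 and 106.0 CPM, and Pfkm, the muscle form, had 47.2, 45.7 and 45.9 CPM. Pfkl held 75.0% ± 1.3 of the length-corrected level of this step (SD, n = 3). It stood 4.64-fold over Pfkm per length and 9.27-fold per coding length. Over Pfkp it stood 8.46-fold per length and 4.24-fold per coding length. The order of the other two depends on the length used, since Pfkm over Pfkp was 1.82-fold per exon length and 0.457-fold per coding length.

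Fructose 2,6-bisphosphate switches on phosphofructokinase-1. It is made and broken down by the bifunctional Pfkfb enzymes, and Tigar can break it down. Pfkfb2 had 33.9, 34.5 and 32.6 CPM, Tigar 24.8, 23.0 and 23.9 CPM and Pfkfb3, the form with the strongest kinase side, 22.6, 18.9 and 21.8 CPM. Pfkfb4 had 8.28, 7.10 and 7.25 CPM and Pfkfb1 3.91, 3.70 and 3.28 CPM. Of these 5 genes only Pfkfb3, lowest in C2, varied more than counting noise in the Poisson test described below, with an adjusted p of 0.00137. That test called 39.3% of all genes tested, and 72.3% of those at 100 CPM or more. Per length, Pfkfb2 stood 1.67-fold over Pfkfb3, Pfkfb3 1.80-fold over Pfkfb4 and Pfkfb4 1.71-fold over Pfkfb1. Tigar was 1.41-fold over Pfkfb2 per exon length and 1.47-fold per coding length, but lower by counts.

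Aldolase was almost wholly Aldoa, the form of muscle and most tissues, with 1133, 1109 and 1245 CPM. Aldoc, the brain form, had 16.96, 15.87 and 20.89 CPM. Both were highest in C3 and lowest in C2, and Aldoa stood 57.4-fold over Aldoc per length (log2 ratio 5.84 ± 0.12, SD, n = 3). Tpi1, triose phosphate isomerase, had 812.6, 810.2 and 897.6 CPM. The next 2 steps, which reduce NAD and make the first ATP, have single genes in the list. Gapdh had 541.9, 525.6 and 587.1 CPM in its own row, and Pgk1 had 500.3, 515.3 and 512.3 CPM. For both, the larger part of the counts of gene and copies lay in the copies.

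Phosphoglycerate mutase was represented by Pgam1, the form outside muscle, with 836.3, 816.1 and 854.5 CPM, while the muscle form Pgam2 had no count. Taking 3 counts as the limit in each library, Pgam1 was at least 2083-fold higher than Pgam2 per exon length and 4896-fold per coding length. Enolase had 2 abundant forms. Eno1, the form of most tissues, had 969.8, 938.9 and 978.3 CPM, and Eno3, the muscle form, had 172.1, 165.6 and 173.9 CPM. Eno2, the neuronal form, had 5.56, 3.49 and 6.81 CPM, with C2 below the other libraries. Eno1 over Eno3 was 1.82-fold per exon length, 5.64-fold per coding length and 19.5-fold per coding length with the Eno1 copies. The ratio of the own rows per exon length barely differed between libraries (log2 0.87 ± 0.01, SD, n = 3). With the copies the log2 ratio of counts was 4.29 ± 0.02 (SD, n = 3). The 7 striated muscle markers summed to 0.340, 0.358 and 0.252 CPM, so Eno3 was present where those markers were at or near 0.

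Pyruvate kinase, the last ATP-yielding step, was Pkm2 alone, with 3640, 3576 and 3819 CPM. Its CV between libraries was 3.42%. Pklr, the liver and red cell form, had no count, and Pkm2 was at least 13840-fold higher than Pklr per exon length and 23120-fold per coding length. Lactate dehydrogenase was almost wholly Ldha, the subunit that leads in lactate-forming tissues, with 2025, 2005 and 2194 CPM. Ldhb, the subunit that leads in heart, had 3.40, 3.64 and 4.41 CPM. Ldha stood 258-fold over Ldhb per exon length (log2 ratio 8.01 ± 0.13, SD, n = 3) and 503-fold per coding length. Lactate leaves through monocarboxylate transporters, and Slc16a1 (MCT1) had 240.8, 240.7 and 233.3 CPM. Slc16a3 (MCT4) had 2, 2 and 1 counts, which set 31479 summed counts of Slc16a1 against 5. Bsg, the chaperone that carries both transporters to the membrane, had 338.8, 339.0 and 386.6 CPM.

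**Figure D3:**
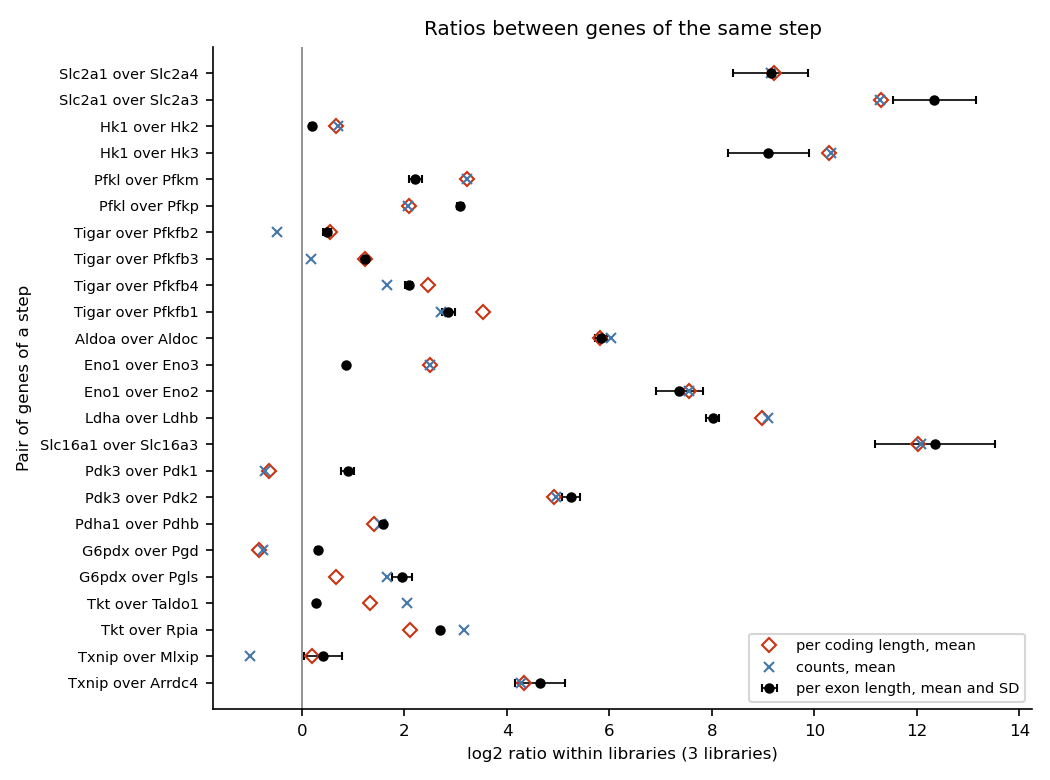
The log2 ratio of the leading gene of a step over each of the others, with black points for the mean per exon length and bars for the SD over 3 libraries, red diamonds for the mean per coding length and blue crosses for the mean of counts. Points left of 0 are ratios that turn with the length used, as for Pdk3 over Pdk1 and G6pdx over Pgd.

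Pyruvate dehydrogenase feeds pyruvate to the mitochondrial cycle and is switched off by its kinases. Pdha1, the E1 alpha subunit, had 291.2, 298.2 and 272.3 CPM, and Pdhb, the E1 beta subunit, had 99.5, 105.5 and 93.0 CPM. Both were highest in C2 and lowest in C3, and Pdha1 stood 2.99-fold over Pdhb per length. Among the kinases, Pdk1, a target of the hypoxia-inducible factor, had 79.4, 84.7 and 88.8 CPM. Pdk3 had 53.4, 50.9 and 49.8 CPM, Pdk2 had 1.48, 1.75 and 1.72 CPM, and Pdk4, the starvation-induced form, had 3 counts in C2 and 0 in C1 and C3. Pdk3 was 1.85-fold over Pdk1 per exon length and 0.638-fold per coding length, so the order of these 2 is not settled. Pdk3 was 38.2-fold over Pdk2.

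The oxidative pentose phosphate steps make NADPH. G6pdx, which controls entry to the pathway, had 158.4, 160.4 and 140.4 CPM. Pgls, the lactonase of the next step, had 46.2, 47.1 and 51.8 CPM, and Pgd, the second NADPH-forming enzyme, had 271.9, 263.6 and 238.1 CPM. C3 was thus lowest for G6pdx and Pgd and highest for Pgls. G6pdx was 1.24-fold over Pgd per exon length and 0.557-fold per coding length. G6pdx over Pgls was 3.87-fold per exon length and 1.58-fold per coding length. In the non-oxidative part, which trades carbon between sugars, Tkt (transketolase) had 416.3, 412.2 and 398.5 CPM and Taldo1 (transaldolase) had 100.6, 99.3 and 98.4 CPM. Rpia, which makes ribose 5-phosphate, had 46.7, 46.0 and 45.3 CPM. Taldo1 and Rpia were among the steadiest genes of the list, with a CV of 1.10% and 1.53%. Tkt over Taldo1 was 1.21-fold per exon length and 2.52-fold per coding length.

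Among the glucose-sensing genes the libraries were least alike in Txnip, with a CV of 33.0%, against 16.5% for Arrdc4 and 6.89% for Mlxip. Txnip, an arrestin-like protein that lowers glucose uptake and is induced by MondoA, had 23.3, 30.3 and 44.4 CPM, with no overlap of the 95% counting intervals of the 3 libraries. Mlxip, which encodes MondoA, had 59.2, 63.0 and 67.9 CPM, and its liver relative Mlxipl had no count. Arrdc4, the nearest relative of Txnip and also a MondoA target, had 1.42, 1.94 and 1.56 CPM, with overlapping counting intervals in all 3 libraries, so no order of its libraries could be read at this depth. Txnip over Mlxip was 1.33-fold per exon length, with a log2 ratio of 0.07 in C1, 0.36 in C2 and 0.80 in C3. Txnip stood 24.9-fold over Arrdc4. The antisense gene Gm15441, which overlaps 19.4% of the Txnip exon bases in the annotation, had 1, 7 and 3 counts.

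The spread between libraries was tested for the 39 genes that passed the filter on low counts, in a fit of all 13026 genes that passed it. edgeR's quasi-likelihood F test asks whether a gene varied more than genes of its level. With Benjamini-Hochberg adjustment it called 0 of 39, against 0.0691% of all genes tested (9 genes). At an unadjusted p under 0.05 it named 6 of 39 (15.4%), against 5.15% of all genes tested. Without C3 the count was 2 of 39 (5.13%, Eno2 and Txnip), against 4.77% of all genes tested. The 6 were Txnip, Eno2, Slc2a1, Gpi1, Aldoc and Pfkl, and all 6 were highest in C3, as were 35.5% of all genes tested. Txnip came closest to a call, with a highest library 1.92-fold over the lowest and an adjusted p of 0.0678 in the quasi-likelihood test. Eno2, with 1.95-fold between its libraries, had an adjusted p of 0.363 in that test, and Slc2a1, with 1.30-fold, had 0.415. Txnip was called with total-count scaling, with upper-quartile scaling and without C2, and Txnip, Eno2 and Slc2a1 without the filter on low counts. All-gene calls at these settings were 14, 13, 25 and 171. A robust fit called no gene of the table, and in it Txnip and Eno2 were not among the 4 genes of the list with an unadjusted p under 0.05 (Aldoc, Gpi1, Pfkl and Slc2a1).

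**Figure D4:**
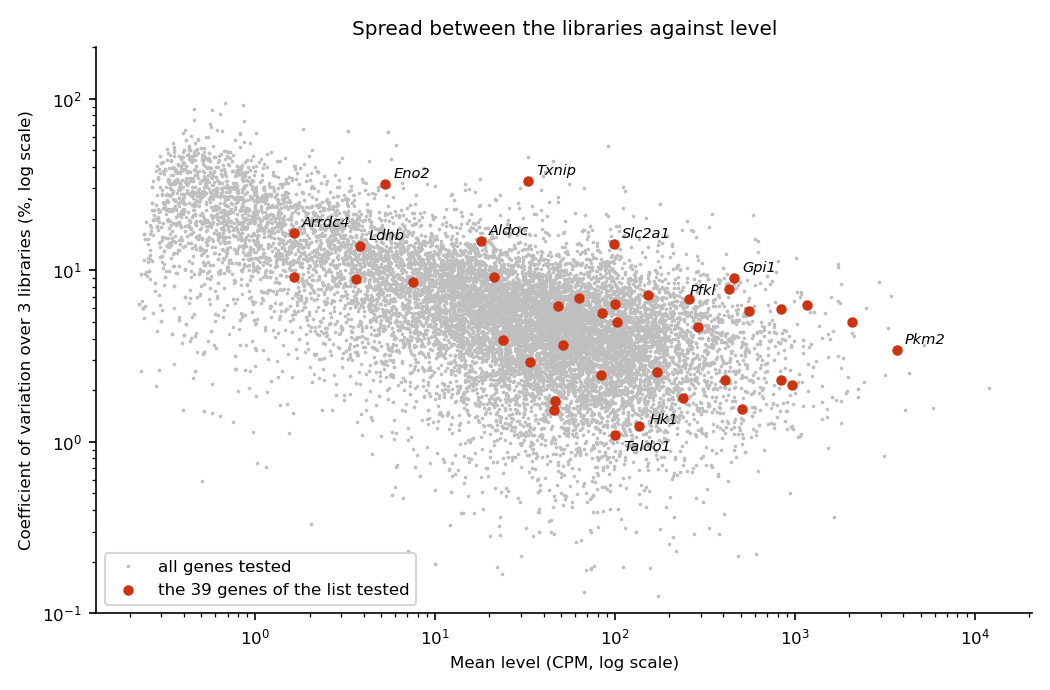
The CV over 3 libraries against mean CPM, both on log axes, with grey points for all 13026 genes tested and red points for the 39 genes of the list. Txnip and Eno2 lie at the upper edge for their level, and Hk1 and Taldo1 lie low.

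A test against counting noise alone is far more sensitive at these depths. The Poisson chi-square test called 24 of 39 genes (61.5%), against 39.3% of all genes tested, with Benjamini-Hochberg adjustment. Among genes at 100 CPM or more it called 15 of 18 (83.3%), against 72.3% of all genes at that level. Without C3 it called 6 of 39 (15.4%), against 12.9% of all genes tested, and without C2 18 of 39 (46.2%), against 13.8%. The folds behind these calls were small: Pkm2 was called with 1.07-fold and Ldha with 1.10-fold between its highest and lowest library.

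The called genes leaned to library C3. C3 was the highest library for 21 of 39 genes (53.8%), against 35.5% of all genes tested, and the lowest for 11 (28.2%), against 35.4%. C2 was the highest for 7 (17.9%), against 34.3%, and the lowest for 17 (43.6%), against 34.4%. C1 was the highest for 11 and the lowest for 11 (28.2% each), against 30.1% of all genes tested either way. Genes that passed the Poisson test and were highest in C3 numbered 18 (46.2%), against 16.2% of all genes tested. Those that passed it and were lowest in C3 numbered 5 (12.8%), against 14.8%. The test calls abundant genes more often. At 100 CPM or more, 11 of 18 passed it as highest in C3, against 669 of all 2467 genes at that level. Passing it as lowest in C3 were 4 of 18, against 771 of the 2467. The median log2 deviation from the mean of the 3 libraries was -0.001 in C1, -0.036 in C2 and 0.036 in C3 over the 39 genes, and lay within 0.001 of 0 in each library over all genes tested. Without C3 the median in C2 was -0.010, and without C2 the median in C3 was 0.019.

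The branches of the pathway differed in this, in groups drawn after the values were seen and so described with no test. From glucose transport to lactate dehydrogenase, without the fructose 2,6-bisphosphate genes, the list has 24 genes. Of the 19 tested, 17 (89.5%) were highest in C3, against 35.5% of all genes tested. The exceptions were Pfkm, highest in C1, and Pgk1, highest in C2. The 14 of these 19 that passed the Poisson test were all highest in C3, against 2107 of the 5118 genes tested that passed it. The 19 had a median log2 deviation of 0.085 in C3, -0.027 in C1 and -0.044 in C2. With the counts of near-identical copies added, Gapdh, Eno1, Pgk1 and Pgam1 were each highest in C3. Of the 6 pentose phosphate genes, 5 were lowest in C3, with Pgls as the exception, against 35.4% of all genes tested. G6pdx, Pgd and Tkt, 3 of the 6, passed the Poisson test as lowest in C3, against 14.8% of all genes tested. Of the 5 pyruvate dehydrogenase and kinase genes tested, Pdha1, Pdhb and Pdk3 were lowest in C3, against the same 35.4%. The regulators and the lactate exporter lie outside these groups. Of them, Pfkfb1, Pfkfb3, Pfkfb4, Tigar and Slc16a1 were highest in C1, and Pfkfb2 and Arrdc4 in C2. Txnip and Mlxip were highest in C3. Many of these sizes are small, with C3 at a log2 deviation of -0.12 for G6pdx and 0.10 for Aldoa. The largest in C3 among the glycolysis genes were 0.419 for Eno2, 0.235 for Aldoc and 0.23 for Slc2a1.

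**Figure D5:**
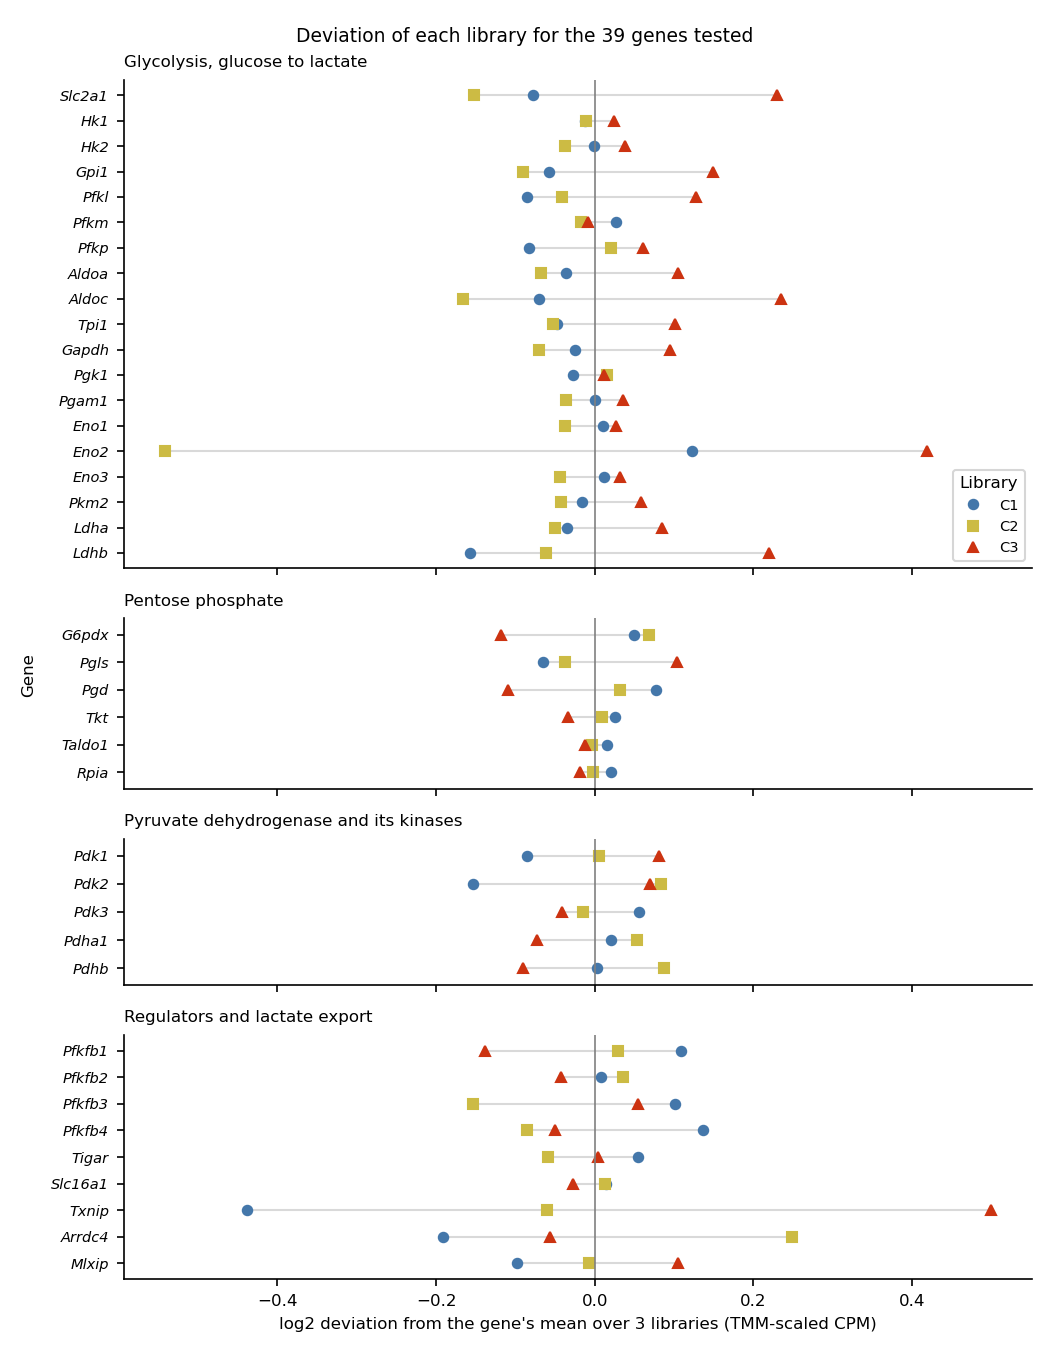
The log2 deviation of each library from the mean of 3 libraries for the 39 genes tested, by branch, with blue circles for C1, yellow squares for C2 and red triangles for C3. The triangles lie to the right for nearly all genes of the glycolysis group and to the left for 5 of 6 pentose phosphate genes.

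Other genes moved with C3. Of 17 hypoxia-responsive genes outside the list, 14 (82.4%) were highest in C3, against 35.5% of all genes tested. Their median log2 deviation in C3 was 0.15. Car9, a carbonic anhydrase and a target of the hypoxia-inducible factor, had 32.4, 30.3 and 55.7 CPM, with an adjusted p of 0.0298 in the quasi-likelihood test. The 3 highest of these genes, Ndrg1, Bnip3l and Ero1l, were highest in C3 as well, with Ndrg1 at 296.3, 307.3 and 428.5 CPM. The exceptions were Ddit4, highest in C2 and lowest in C3 at 89.2, 111.7 and 83.2 CPM, and Adm and Ankrd37, highest in C1. Of the 7 epithelial markers, 6 (85.7%) were highest in C3, against 35.5% of all genes tested. The summed level of the 7 was 3474, 3506 and 3789 CPM. The part of these genes and markers in the C3 values was not tested.

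Beyond the list, 65 other genes of glucose metabolism were looked at (glycogen, galactose and fructose enzymes, pyruvate carriers and further transporters). At 1 CPM or more in every library were 42, against 33.8% of all rows of the table. An average of 100 CPM or more was reached by 7, led by Bsg, Dld and Galk1, against 7.13% of all rows. None of the 45 tested was called by the quasi-likelihood test, against 0.0691% of all genes tested. At an unadjusted p under 0.05 in that test were 4 of the 45, against 5.15%. C3 was highest for 15 of the 45 (33.3%), against 35.5% of all genes tested, and lowest for 22, against 35.4%. Of 12 testis-type and other paralogs with a row, only the mitochondrial phosphatase Pgam5 was at 1 CPM or more in every library, with 103.1, 99.9 and 98.9 CPM.

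Promoters were searched because hypoxia and glucose signals reach these genes through short motifs. The window was 250 bases before each RefSeq start (GRCm38.p6), and 46 of the 48 genes had one or more, 68 windows in all. Letters were read on both strands, and motifs may overlap, since the E-box CACGTG contains the hypoxia core ACGTG. This core stood in 32.4% of the list's windows, against 16.6% of all 32851 windows. GCGTG stood in 54.4%, against 28.2%, and CACGTG in 11.8%, against 6.02%. Windows of a gene can overlap, as for Aldoa and Eno1, so a single match can count more than once. Repeats of a window at the same position were dropped for the list but not for all windows, so these shares are not fully alike. The list's windows were also richer in G and C, with a median of 59.0% against 52.4%. The ACGTG core stood in a window of 6 of the 21 genes highest in C3 and of 9 of the 18 genes highest in C1 or C2. A gene counts here if any of its windows holds the core, so genes with more windows have more chances. The groups were not matched for windows per gene, and no such share over all genes was computed, so no difference can be read from these counts. A match of letters is a description and not a binding site.

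Windows are printed for Ldha, an abundant gene with both kinds of letters, and for Txnip and Arrdc4, both targets of MondoA. Capitals mark ACGTG or GCGTG on either strand, and the E-box where it holds them. They run 5′ to 3′ on the gene's strand, at chr7:46845554-46845803 on the plus strand for Ldha, chr3:96557707-96557956 on the plus strand for Txnip and chr7:68749239-68749488 on the minus strand for Arrdc4.
Ldha: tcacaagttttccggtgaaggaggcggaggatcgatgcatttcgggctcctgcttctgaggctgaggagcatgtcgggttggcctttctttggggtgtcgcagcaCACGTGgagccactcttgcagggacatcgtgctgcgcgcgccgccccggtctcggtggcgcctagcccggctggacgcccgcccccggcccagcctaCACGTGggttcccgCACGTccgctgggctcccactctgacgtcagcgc
Txnip: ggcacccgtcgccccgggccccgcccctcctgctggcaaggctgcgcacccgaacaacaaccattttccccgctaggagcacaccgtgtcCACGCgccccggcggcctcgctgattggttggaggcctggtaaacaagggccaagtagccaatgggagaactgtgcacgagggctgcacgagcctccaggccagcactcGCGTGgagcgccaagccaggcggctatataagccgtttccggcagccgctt
Arrdc4: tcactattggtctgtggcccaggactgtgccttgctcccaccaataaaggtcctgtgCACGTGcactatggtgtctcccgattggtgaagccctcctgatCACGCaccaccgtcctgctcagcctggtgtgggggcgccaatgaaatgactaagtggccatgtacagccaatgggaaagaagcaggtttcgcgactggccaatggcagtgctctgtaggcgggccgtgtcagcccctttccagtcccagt

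The Ldha window held the E-box at 145 and 48 bases before the start and a further ACGTG core at 34. The Txnip window held GCGTG at 160 and 51 bases before the start and no exact CACGTG. The Arrdc4 window held an E-box at 193 and GCGTG at 150. Only exact letters were searched, so variant forms of a motif, in Txnip or elsewhere, would not be seen.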

How the data were processed

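The authors deposited 1 table of whole-number read counts per gene symbol, not normalized, with 3 columns. CASAVA 1.7, BWA, STAR, HTSeq and the build mm9 are named, with no role or order, per the submitters' processing notes; the annotation, the strand setting and how reads matching more than 1 gene were treated are unstated. Counts of genes that share sequence or overlap others are therefore uncertain. In the annotation used, Pklr shares 22.0% of its exon bases with Hcn3, Pgls 20.6% with Fam129c and G6pdx 13.6% with Ikbkg. Further genes overlap others too, such as Pfkp by 5.6% with Pitrm1 and Pkm2 by 15.3% with Gm49759, which has no row of its own. The columns could be tied to the group but not to single samples.

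From the counts, CPM was computed on column totals. TPM used GENCODE M21 exon lengths (GRCm38, a length for 91.0% of symbols, 31489 of 34591). Ratios were taken within libraries with 0.5 counts added, the gene with the highest level per length over each other gene of its step. The direction of the 28 pairs follows from that choice. Some steps hold subunits or different enzymes and not isoforms, as for Pdha1 and Pdhb or G6pdx, Pgls and Pgd. With 3 libraries the smallest exact sign-flip p is 0.25, so none is reported. Spread was tested with edgeR 4.0.16 in R 4.3.3 (intercept only, TMM, filterByExpr, quasi-likelihood dispersion against its trend) and by a Poisson chi-square test with 2 degrees of freedom, both adjusted by Benjamini-Hochberg at 0.05 over 13026 genes. The common biological coefficient of variation was 0.0571. Both tests were tested on simulated data. Log2 deviations used TMM-scaled CPM with a prior count of 2. Count ratios have exact 95% intervals.

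The members and lists were chosen with earlier results of these data known. Values per library follow a rule: the leading genes of each step, the genes called or most variable and those under 1 CPM; values of the remaining genes were added so that each is shown. The branch groups, the search for copies and the choice of the Ldha window were made after values were seen. Alternatives were other scalings, no filter, other lengths and added counts, a robust fit and leaving out each library.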

Additional observations from a re-analysis of the deposited data

How the results depend on the processing

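The quasi-likelihood spread test called 1 of the 39 genes with total-count scaling (14 of all 13026), 1 with upper-quartile scaling (13 of 13026) and 3 of 44 with no filter on low counts (171 of 18797), against 0 in the analysis reported (9 of 13026). It called 0 to 1 when a library was left out, and a robust fit called 0 of all genes. The Poisson test called 6 to 24 when a library was left out, with 6 without C3. All-gene calls fell as well, to 1667 without C3 and 1761 without C2, against 5118. The median log2 deviation of the genes in C1 was 0.010 without C3, and ranged from -0.019 to 0.010 over the libraries left out. In C2 it ranged from -0.032 to -0.010 and in C3 from 0.019 to 0.032. With 2 libraries left, the deviations of a gene are equal in size and opposite in sign, so these ranges are not separate results. Ratios reversed with the length used. By counts, the log2 ratio of Tigar over Pfkfb2 was -0.494, of Pdk3 over Pdk1 -0.714, of G6pdx over Pgd -0.752 and of Txnip over Mlxip -1.005. Per coding length, Pdk3 over Pdk1 was -0.649 and G6pdx over Pgd -0.845. Per longest transcript, Tigar over Pfkfb2 was -0.191 and G6pdx over Pgd -0.294. Per longest transcript, the log2 ratio of Hk1 over Hk2 was 1.07, of Aldoa over Aldoc 6.87, of Eno1 over Eno3 2.12, of Eno1 over Eno2 8.02, of Pfkl over Pfkm 2.84, of Ldha over Ldhb 8.61 and of Tigar over Pfkfb3 0.579. The remaining leading-gene pairs of the 28 kept their direction under these settings, and all 28 did with 0.1 or 1 counts added. Pairs below the leading gene were not run under each setting, and Pfkm over Pfkp had a log2 ratio of -1.13 per coding length and -1.14 by counts. The counts of glycolysis genes highest in C3 stayed at 17 to 18 under the scalings, with no filter and without C1 or C2. The count of pentose phosphate genes lowest in C3 stayed at 5 under the same settings. A gene highest or lowest in C3 among 3 libraries nearly always remains so among 2, so leaving out C1 or C2 does not test these counts. Leaving out a library leaves 2, so these values rest on few libraries, and C1, with the fewest counts, sets the limit for genes at 0. No paired analysis was possible because there is a single group.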
